A study of Mus musculus with 18 samples.

Results

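The genes of 10 airway enzymes that handle drugs and toxicants were followed across all 18 libraries of a mouse lung RNA-seq study: Cyp2f2, Cyp2b10, Cyp4b1, Fmo2, Ces1d, Ces1f, Pon1, Aox3, Aldh1a1 and Ugt1a6a. They were taken by name, but the list was chosen with earlier results of these data known. All 10 of 10 were present among the 15544 genes of the series. They also passed the filter on low values that left 15249 genes for testing. The RNA came from lung cells pulled out on magnetic beads by the epithelial surface protein EpCAM, from mice 10 to 12 weeks old. The groups were animals labelled Double-Het, Falcor+/-;Foxa2+/- (4 libraries, replicates 15 to 18), Falcor-/- (5 libraries, replicates 6 to 10), Foxa2+/- (4 libraries, replicates 11 to 14) and wild type (5 libraries, replicates 1 to 5). The forkhead transcription factor Foxa2 acts in lung and liver epithelium, and Falcor is the long non-coding RNA of the neighbouring gene 9030622O22Rik. The comparisons ask what the epithelium expresses after loss of Falcor, of a single Foxa2 allele, or of an allele at each locus. The labels name no strain, no promoter or Cre driver and no allele design, and do not say whether each library is a separate animal, so p-values measure only the spread between these libraries.

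Xenobiotic enzymes work in phases. Cytochrome P450s and flavin monooxygenases insert oxygen into foreign molecules, carboxylesterases and paraoxonases split esters and lactones, aldehyde oxidases and dehydrogenases turn aldehydes into acids, and UDP-glucuronosyltransferases attach a sugar acid that makes the product easier to excrete. In the mouse lung much of this activity sits in club cells, the secretory cells of the small airways, which is why toxicants that need P450 activation, such as naphthalene, injure those cells first.

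The 250 bases before the start of transcription are shown for Aox3 and Ugt1a6a, which shared the pattern between mutant genotypes described further on, and for Pon1, the only member whose first start site had a forkhead word. RefSeq promoter entries (GRCm38.p6) were found for 8 of the 10 members, with 10 start sites among them; Ces1d and Ces1f were not matched. Each sequence reads 5′ to 3′ on the strand of its gene, and capitals mark the forkhead word.
Aox3, chr1:58112886-58113135, plus strand: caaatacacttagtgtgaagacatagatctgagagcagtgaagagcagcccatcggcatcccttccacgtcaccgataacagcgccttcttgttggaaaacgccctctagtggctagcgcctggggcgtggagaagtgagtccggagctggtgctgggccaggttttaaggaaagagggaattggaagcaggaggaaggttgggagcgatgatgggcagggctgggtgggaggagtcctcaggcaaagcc
Ugt1a6a, chr1:88134559-88134808, plus strand: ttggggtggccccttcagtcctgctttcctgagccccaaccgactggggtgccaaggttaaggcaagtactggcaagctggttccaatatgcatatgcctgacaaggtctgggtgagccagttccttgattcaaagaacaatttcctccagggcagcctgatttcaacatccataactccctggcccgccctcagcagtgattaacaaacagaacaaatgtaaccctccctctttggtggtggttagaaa
Pon1, chr6:5193947-5194196, minus strand: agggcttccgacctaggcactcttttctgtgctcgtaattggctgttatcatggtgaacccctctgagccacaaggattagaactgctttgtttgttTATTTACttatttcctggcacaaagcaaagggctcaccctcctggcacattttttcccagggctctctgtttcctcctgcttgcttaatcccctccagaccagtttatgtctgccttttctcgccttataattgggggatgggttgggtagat

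The forkhead words searched on both strands were TGTTTAC and TATTTAC. At the first start sites of the 8 members, TGTTTAC was found in 0 and TATTTAC in 1, the Pon1 match, at position -153 from the start on the gene's own strand. Over 27025 promoter windows of the same length these words were present in 3.09% and 2.75%. At second start sites, Fmo2 held TGTTTAC on the opposite strand at position -28, and Aldh1a1 held TATTTAC on the opposite strand at position -213. First and second only follow the order in which the sites of a gene were listed. The 2 Aldh1a1 windows lay far apart, at chr19:20492333-20492582 (first) and chr19:20601718-20601967 (second). The word GCGTG, which the aryl hydrocarbon receptor recognises, was present at the first start sites of 2 of 8 members, Cyp2b10 and Aox3, against 28.2% of all windows. The antioxidant response word TGACNNNGC was present at 0 of 8, against 10.1% of all windows. A match is only the presence of these letters in this window, and no match says nothing of sites elsewhere.

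Levels are the authors' log2 values after quantile normalization, so 1 unit is a doubling relative to the other genes of the same library, and levels of different genes are not compared because transcript length is not accounted for. Depth is unknown. Log2 differences below come from limma fitted to all 15249 genes, first-named genotype minus second, and a gene was called at a Benjamini-Hochberg adjusted p below 0.05. The genotype labels were checked on the targeted genes. Falcor RNA averaged 6.20 ± 0.68 in Falcor-/- and 10.18 ± 0.48 in wild type (SD, n = 5 each). It averaged 11.66 ± 0.15 in Double-Het and 11.70 ± 0.21 in Foxa2+/- libraries (SD, n = 4 each), so the Falcor copy named as lost in the Double-Het label was not visible in its RNA (difference -0.04, 95% CI -0.68 to 0.60). Foxa2 averaged 12.36 ± 0.19 in Double-Het and 12.39 ± 0.05 in Foxa2+/- libraries (SD, n = 4 each), against 12.97 ± 0.08 in wild type, and 12.73 ± 0.23 in Falcor-/- libraries (SD, n = 5 each). Epcam lay between 13.75 and 14.48 in every library.

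Aox3 and Ces1f separated the mutant genotypes most clearly, both lower in Falcor-/- than in Foxa2+/- libraries and higher in Double-Het than in Falcor-/- libraries. Ugt1a6a passed the same 2 tests, but its call in Falcor-/- against Foxa2+/- was lost in most other fits. The Falcor-/- call of Ces1f against Foxa2+/- was lost with the endothelial marker mean as a covariate. All of the Double-Het calls against Falcor-/- were lost with the endothelial or the mesenchymal marker mean as a covariate. Aox3 was also below wild type in Falcor-/- libraries. Ces1d, Pon1 and Ugt1a6a were higher in Double-Het libraries than in wild type. All of these Double-Het calls were lost under a housekeeping shift and with the club, endothelial or mesenchymal marker mean as a covariate. Those of Pon1 and Ugt1a6a each held in only 3 of 9 leave-one-out fits. No member passed the test between Foxa2+/- and wild type, although Pon1 did in 3 of the other fits. The mean was highest in Double-Het libraries for 9 of the 10 members (all but Aox3) and lowest in Falcor-/- libraries for 6 of them. Quantile-normalized levels from a sorted population cannot tell fewer cells of a type from less RNA per cell.

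**Figure D1:**
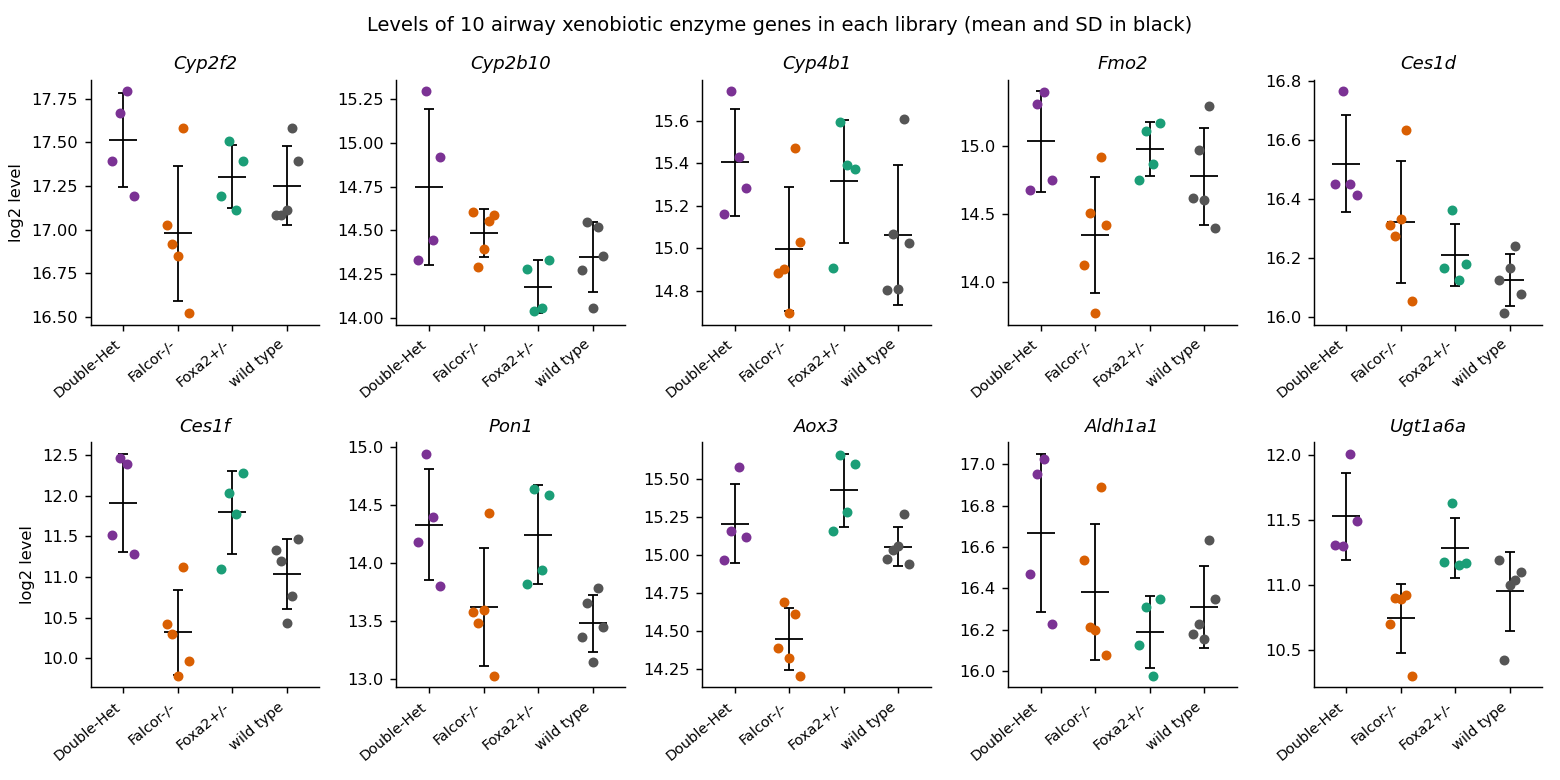
Log2 level (y axis, a separate range in each panel) of the 10 enzyme genes in each library, grouped as Double-Het, Falcor-/-, Foxa2+/- and wild type on the x axis. Each point is a library and the black marks are the mean and SD. Aox3 in the 5 Falcor-/- libraries, 14.20 to 14.69, lies below every other library (14.94 to 15.66).

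Among the monooxygenases, which carry out the oxygen insertion, no member was called in any of the 6 comparisons. Cyp2f2, the P450 that activates naphthalene in mouse club cells, measured 17.40, 17.67, 17.80 and 17.19 in the Double-Het libraries, 17.03, 16.92, 16.85, 17.58 and 16.52 in the Falcor-/- libraries and 17.19, 17.51, 17.11 and 17.40 in the Foxa2+/- libraries, against 17.09, 17.09, 17.11, 17.58 and 17.40 in the wild-type libraries. The groups overlapped, with Double-Het replicate 17 the highest library and Falcor-/- replicate 10 the lowest. Its difference from wild type was 0.26 in Double-Het (95% CI -0.12 to 0.64, adjusted p = 0.349), -0.27 in Falcor-/- (95% CI -0.63 to 0.09, adjusted p = 0.261) and 0.05 in Foxa2+/- (95% CI -0.33 to 0.43, adjusted p = 0.931).

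Cyp2b10, the mouse P450 best known for its induction by phenobarbital through the nuclear receptor CAR, measured 14.33, 15.30, 14.45 and 14.92 in the Double-Het libraries, 14.60, 14.29, 14.39, 14.55 and 14.59 in the Falcor-/- libraries and 14.28, 14.04, 14.06 and 14.33 in the Foxa2+/- libraries, against 14.27, 14.54, 14.05, 14.52 and 14.35 in the wild-type libraries. Double-Het replicates 16 and 18 stood above every other library, while replicates 15 and 17 lay inside the wild-type range. The difference from wild type was 0.40 in Double-Het (95% CI 0.07 to 0.73, adjusted p = 0.0998), 0.14 in Falcor-/- (adjusted p = 0.526) and -0.17 in Foxa2+/- (adjusted p = 0.636). Without Double-Het replicate 15 the Double-Het difference was 0.54 (adjusted p = 0.0387). That was the only 1 of 9 leave-one-out fits with a call, and the difference ranged from 0.22 to 0.54 (adjusted p up to 0.358).

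Cyp4b1, a lung P450 that hydroxylates fatty acids and activates plant toxins such as 4-ipomeanol, measured 15.16, 15.74, 15.43 and 15.29 in the Double-Het libraries, 14.88, 14.90, 14.69, 15.47 and 15.03 in the Falcor-/- libraries and 14.91, 15.59, 15.39 and 15.37 in the Foxa2+/- libraries, against 14.80, 15.07, 14.81, 15.61 and 15.02 in the wild-type libraries. A single library stood well above the others in Falcor-/- (replicate 9) and in wild type (replicate 4), and all 4 groups overlapped. Its differences from wild type were 0.34 in Double-Het (adjusted p = 0.226), -0.07 in Falcor-/- (adjusted p = 0.805) and 0.25 in Foxa2+/- (adjusted p = 0.503).

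Fmo2, the flavin monooxygenase typical of mammalian lung, measured 14.68, 15.31, 15.40 and 14.75 in the Double-Het libraries, 14.13, 14.51, 13.77, 14.92 and 14.42 in the Falcor-/- libraries and 14.75, 15.11, 14.87 and 15.17 in the Foxa2+/- libraries, against 14.62, 14.97, 14.60, 15.29 and 14.40 in the wild-type libraries. Falcor-/- replicates 8 and 6 were the lowest libraries, and Falcor-/- replicate 9 lay inside the range of every other group. The difference from wild type was 0.26 in Double-Het (adjusted p = 0.45), -0.43 in Falcor-/- (95% CI -0.86 to 0.01, adjusted p = 0.156) and 0.20 in Foxa2+/- (adjusted p = 0.707). Between mutants Fmo2 came close to the threshold, at -0.63 in Falcor-/- against Foxa2+/- (adjusted p = 0.0559) and 0.69 in Double-Het against Falcor-/- (adjusted p = 0.0768). Without Falcor-/- replicate 9 these differences were -0.77 (adjusted p = 0.034) and 0.83 (adjusted p = 0.0328). The first was called in 2 of 9 leave-one-out fits (adjusted p up to 0.129) and the second in 1 of 9 (adjusted p up to 0.239).

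Of the ester-splitting enzymes, Ces1d and Pon1 rose in Double-Het libraries against wild type, and Ces1f fell in Falcor-/- libraries against Foxa2+/-. Ces1d, a carboxylesterase of lung and liver, measured 16.45, 16.77, 16.45 and 16.41 in the Double-Het libraries, 16.31, 16.28, 16.33, 16.64 and 16.06 in the Falcor-/- libraries and 16.17, 16.36, 16.13 and 16.18 in the Foxa2+/- libraries, against 16.13, 16.01, 16.17, 16.24 and 16.08 in the wild-type libraries. Every Double-Het library lay above every wild-type library, and the highest value was Double-Het replicate 16. The difference from wild type was 0.40 in Double-Het (SE 0.103, adjusted p = 0.0159, 4 of 4 libraries above the wild-type mean, exact permutation p = 0.00794, the smallest these group sizes allow). It was 0.20 in Falcor-/- (adjusted p = 0.162) and 0.08 in Foxa2+/- (adjusted p = 0.746). Without Double-Het replicate 16 the Double-Het difference was 0.31 (adjusted p = 0.0701), and its call held in 8 of 9 leave-one-out fits. The Ces1d call was lost under the housekeeping shift and with the club, endothelial or mesenchymal marker mean as a covariate.

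Ces1f, a second carboxylesterase of the same gene cluster, varied most of the 10, with an SD of 0.81 over the 18 libraries against 0.24 for the median gene tested. It measured 11.52, 12.47, 12.40 and 11.28 in the Double-Het libraries, 10.43, 10.29, 9.78, 11.13 and 9.96 in the Falcor-/- libraries and 11.10, 12.03, 11.78 and 12.27 in the Foxa2+/- libraries, against 11.33, 11.20, 10.43, 10.76 and 11.46 in the wild-type libraries. Every Double-Het library was above every Falcor-/- library, and 4 of 5 Falcor-/- libraries lay below the lowest wild-type library. In Falcor-/- libraries Ces1f was at 35.9% of its Foxa2+/- level (difference -1.48, SE 0.315, adjusted p = 0.00857), and in Double-Het libraries at 303% of its Falcor-/- level (difference 1.60, SE 0.315, adjusted p = 0.00755). Both calls held in 9 of 9 leave-one-out fits. With the endothelial marker mean as a covariate the difference from Foxa2+/- was -1.65, larger than before, but not called (adjusted p = 0.0962). The Double-Het call against Falcor-/- was lost with the endothelial (1.84, adjusted p = 0.469) or mesenchymal mean (2.02, adjusted p = 0.475). Against wild type the differences were 0.88 in Double-Het (95% CI 0.22 to 1.54, adjusted p = 0.0691), -0.72 in Falcor-/- (95% CI -1.34 to -0.09, adjusted p = 0.108) and 0.76 in Foxa2+/- (95% CI 0.10 to 1.42, adjusted p = 0.188).

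Pon1, the paraoxonase that hydrolyses organophosphates and lactones and that the liver secretes onto HDL, measured 14.18, 14.94, 14.39 and 13.80 in the Double-Het libraries, 13.58, 13.48, 13.60, 14.43 and 13.03 in the Falcor-/- libraries and 13.82, 14.64, 13.94 and 14.58 in the Foxa2+/- libraries, against 13.36, 13.66, 13.15, 13.78 and 13.45 in the wild-type libraries. All 4 Double-Het and all 4 Foxa2+/- libraries were above the highest wild-type library (13.78), Double-Het replicate 18 and Foxa2+/- replicate 11 by the least, and Falcor-/- replicate 9 stood apart from the other Falcor-/- libraries. The difference from wild type was 0.85 in Double-Het (SE 0.26, adjusted p = 0.0367), 0.76 in Foxa2+/- (SE 0.26, adjusted p = 0.0986) and 0.14 in Falcor-/- (95% CI -0.37 to 0.66, adjusted p = 0.699). For Double-Het and for Foxa2+/- an exact permutation test gave p = 0.00794. In Foxa2+/- against wild type Pon1 was called with library weights (0.82, adjusted p = 0.0224), with only those 2 genotypes fitted (0.76, adjusted p = 0.0435) and with the club marker mean as a covariate (0.58, adjusted p = 0.0296). The Double-Het call of Pon1 held in 3 of 9 leave-one-out fits, and its lowest difference, 0.64, came without Double-Het replicate 16 (adjusted p = 0.146). That call was lost under the housekeeping shift (0.77, adjusted p = 0.0596) and with the club mean (0.44, adjusted p = 0.109). It was also lost with the endothelial (0.56, adjusted p = 0.964) or mesenchymal mean (0.77, adjusted p = 0.605).

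**Figure D2:**
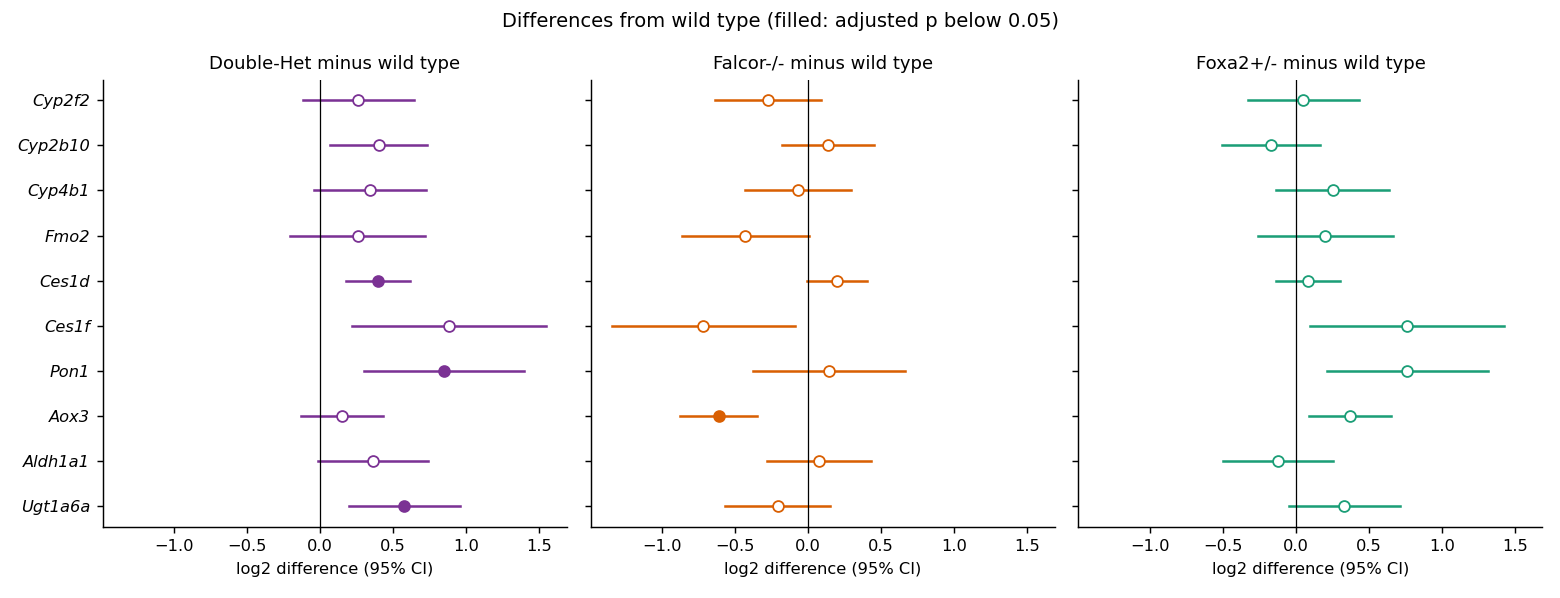
Log2 difference from wild type with its 95% confidence interval (x axis) for each enzyme gene (rows), in Double-Het, Falcor-/- and Foxa2+/- libraries. Filled points have an adjusted p below 0.05. They are Ces1d, Pon1 and Ugt1a6a in Double-Het and Aox3 in Falcor-/-, and all 10 Double-Het points lie right of 0.

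Of the aldehyde-oxidizing enzymes, Aox3 fell in Falcor-/- libraries and Aldh1a1 passed no test. Aox3 is a molybdenum-containing aldehyde oxidase of mouse liver and lung that also oxidizes nitrogen heterocycles. It measured 14.97, 15.16, 15.58 and 15.12 in the Double-Het libraries, 14.39, 14.69, 14.32, 14.61 and 14.20 in the Falcor-/- libraries and 15.16, 15.66, 15.29 and 15.60 in the Foxa2+/- libraries, against 14.97, 15.03, 15.06, 15.27 and 14.94 in the wild-type libraries. The Falcor-/- libraries formed a group of their own, 0.25 below the lowest of the other 13 libraries. Aox3 in Falcor-/- was at 65.5% of wild type (difference -0.61, SE 0.126, adjusted p = 0.0124, 0 of 5 libraries above the wild-type mean, exact permutation p = 0.00794) and at 50.6% of Foxa2+/- (difference -0.98, SE 0.133, adjusted p = 0.000788). Double-Het libraries were 0.76 above Falcor-/- (SE 0.133, adjusted p = 0.00448) and 0.15 above wild type (95% CI -0.13 to 0.43, adjusted p = 0.463). Foxa2+/- libraries were 0.37 above wild type (95% CI 0.09 to 0.65, adjusted p = 0.118). The call against wild type held in 10 of 10 leave-one-out fits and under each other setting run, and so did the call against Foxa2+/- in 9 of 9 and under each setting (adjusted p up to 0.0494, with the endothelial mean as a covariate). The Double-Het call against Falcor-/- was lost with the endothelial (0.67, adjusted p = 0.573) or mesenchymal mean (0.60, adjusted p = 0.718).

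Aldh1a1, which oxidizes retinal to retinoic acid and detoxifies aldehydes, measured 16.47, 16.95, 17.03 and 16.23 in the Double-Het libraries, 16.54, 16.21, 16.20, 16.89 and 16.08 in the Falcor-/- libraries and 16.13, 16.31, 15.98 and 16.35 in the Foxa2+/- libraries, against 16.18, 16.23, 16.16, 16.64 and 16.35 in the wild-type libraries. Double-Het replicates 16 and 17 and Falcor-/- replicate 9 were the 3 highest libraries and Foxa2+/- replicate 13 the lowest. The differences from wild type were 0.36 in Double-Het (95% CI -0.02 to 0.74, adjusted p = 0.189), 0.07 in Falcor-/- (adjusted p = 0.777) and -0.12 in Foxa2+/- (adjusted p = 0.806).

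Ugt1a6a, the conjugating enzyme of the group, glucuronidates small phenols. It measured 11.31, 11.30, 12.01 and 11.49 in the Double-Het libraries, 10.70, 10.90, 10.90, 10.93 and 10.30 in the Falcor-/- libraries and 11.18, 11.63, 11.16 and 11.17 in the Foxa2+/- libraries, against 11.19, 10.43, 11.00, 11.04 and 11.10 in the wild-type libraries. Double-Het libraries were all above the 5 wild-type and the 5 Falcor-/- libraries, the highest being Double-Het replicate 17, and wild-type replicate 2 and Falcor-/- replicate 10 were the lowest. The difference was 0.58 in Double-Het against wild type (SE 0.18, adjusted p = 0.0393), 0.79 in Double-Het against Falcor-/- (SE 0.18, adjusted p = 0.0174) and -0.54 in Falcor-/- against Foxa2+/- (SE 0.18, adjusted p = 0.0483). Against wild type it was -0.21 in Falcor-/- (adjusted p = 0.389) and 0.33 in Foxa2+/- (adjusted p = 0.335). The first call held in 3 of 9 leave-one-out fits, the second in 8 of 9 and the third in 1 of 9. Without wild-type replicate 2 the first difference was 0.45 (adjusted p = 0.0923), and without Double-Het replicate 17 the first 2 were 0.42 (adjusted p = 0.121) and 0.62 (adjusted p = 0.0717). The Falcor-/- call against Foxa2+/- was also lost under the housekeeping shift (-0.54, adjusted p = 0.0844), without the intensity trend (adjusted p = 0.0562), with only the 2 genotypes fitted (adjusted p = 0.0574), and with the club (-0.45, adjusted p = 0.0769), endothelial (-0.35, adjusted p = 0.443) or mesenchymal mean (-0.32, adjusted p = 0.413). The Double-Het call against Falcor-/- was lost with the club mean (0.63, adjusted p = 0.0856) and with only the 2 genotypes fitted (0.79, adjusted p = 0.0531). Ugt1a genes share their last exons, so reads of Ugt1a6a and its relatives may not be separable. Ugt1a6b, its near-identical neighbour, differed by -0.82 in Double-Het against wild type (adjusted p = 0.175) and by -1.43 in Falcor-/- against Foxa2+/- (adjusted p = 0.0246). In Double-Het against Falcor-/- it differed by -0.03 (adjusted p = 0.98). Its mean was 7.07 ± 0.77 in Double-Het and 7.09 ± 0.75 in Falcor-/- libraries (SD), near the filter on low values at 6.

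In counts, 3 of 10 members were called higher and 0 lower in Double-Het against wild type, beside 7.21% of all genes higher and 7.57% lower. In Falcor-/- against wild type 0 were higher and 1 lower, beside 5.23% and 4.24% of all genes. In Foxa2+/- against wild type 0 were higher and 0 lower, beside 1.96% and 4.15% of all genes, with 3 of 10 at an unadjusted p below 0.05 (Ces1f, Pon1 and Aox3), beside 19.2% of all genes. The median difference from wild type was 0.38 for the members and 0.07 for all genes tested in Double-Het, -0.14 and 0.03 in Falcor-/-, and 0.23 and 0.04 in Foxa2+/-. The 3 comparisons share the wild-type libraries. The mutant and wild-type libraries did not overlap for 3 members in Double-Het (15.7% of all genes), 1 in Falcor-/- (6.53% of all genes) and 1 in Foxa2+/- (11.4% of all genes). When libraries were shifted to equal housekeeping means, the share of called genes that were higher moved to 28.5% as against 48.8% in Double-Het, 81.9% as against 55.2% in Falcor-/- and 21.9% as against 32.1% in Foxa2+/-, and 0 members were then called in Double-Het. The 3 Double-Het differences under that shift were 0.32 for Ces1d (adjusted p = 0.0579), 0.77 for Pon1 (adjusted p = 0.0596) and 0.50 for Ugt1a6a (adjusted p = 0.141). Among the housekeeping genes themselves, Sdha and Pgk1 were called higher in Double-Het (0.22 and 0.31).

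The 3 Double-Het calls against wild type depended on single libraries. Only 1 of the 3 was left without Double-Het replicate 16 (Ugt1a6a) and, in each case Ces1d, without Double-Het replicate 17, wild-type replicate 3 or wild-type replicate 5. Members outside the 3 were called without Double-Het replicate 18 (Ces1f, at 1.09) and without Double-Het replicate 15 (Cyp2b10).

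Between the mutant genotypes, which share no wild-type libraries, 3 members were called lower in Falcor-/- than in Foxa2+/- (Aox3, Ces1f and Ugt1a6a), beside 8.1% of all genes, and 3 were higher in Double-Het than in Falcor-/- (the same 3), beside 2.15% of all genes. These comparisons share the Falcor-/- libraries. Under the housekeeping shift the share of called genes that were higher moved to 77.5% as against 51.4% in Falcor-/- against Foxa2+/-, and to 11.1% as against 41.8% in Double-Het against Falcor-/-. The median member differed by -0.43 between Falcor-/- and Foxa2+/- and by 0.61 between Double-Het and Falcor-/-, against 0.00 and 0.02 over all genes, and all 10 members were above Falcor-/- in Double-Het libraries. Groups did not overlap for 2 members (Aox3 and Ugt1a6a) in the first comparison, beside 12.3% of all genes, and for 3 in the second, beside 7.41%. Without Falcor-/- replicate 9, 6 members were called between Double-Het and Falcor-/-, the additions being Cyp2f2 at 0.69, Fmo2 at 0.83 and Pon1 at 0.91. Each addition was called in only that 1 of 9 leave-one-out fits. The share of all genes called in that fit is not given here, so the count of members has no background.

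Between Double-Het and Foxa2+/- libraries no member passed the test. By limma 0 of 10 members were called, beside 2.43% of all genes in either direction, and 3 of 10 had an unadjusted p below 0.05, beside 18.2% of all genes: Cyp2b10 at 0.57 (adjusted p = 0.079), Ces1d at 0.31 (adjusted p = 0.134) and Aldh1a1 at 0.48 (adjusted p = 0.186). Groups did not overlap for Ces1d alone, beside 11.9% of all genes. The intervals still allow sizeable differences, from -0.58 to 0.82 for Ces1f and from -0.49 to 0.66 for Pon1. Without Double-Het replicate 15 Cyp2b10 was called at 0.71 (adjusted p = 0.0451), the only 1 of 8 leave-one-out fits in which it was (adjusted p up to 0.234).

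**Figure D3:**
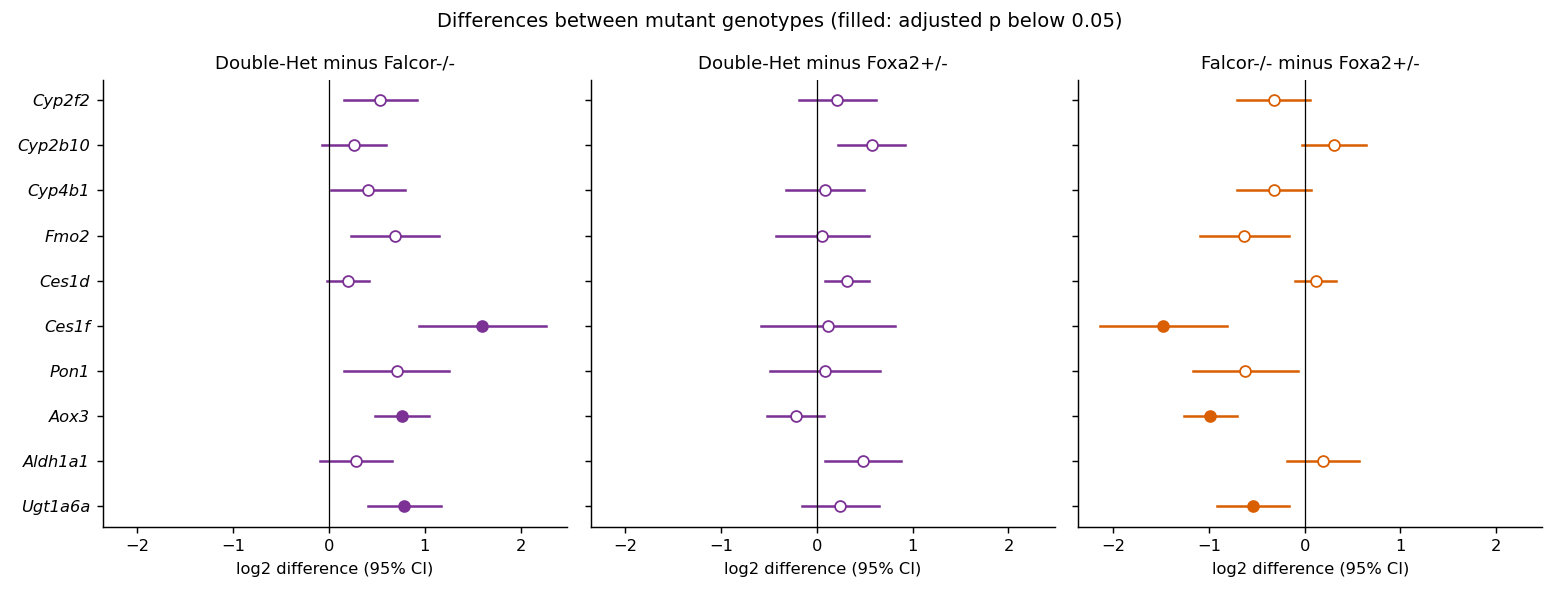
Log2 difference between mutant genotypes with its 95% confidence interval (x axis) for each enzyme gene (rows), as Double-Het minus Falcor-/-, Double-Het minus Foxa2+/- and Falcor-/- minus Foxa2+/-. Filled points have an adjusted p below 0.05. Ces1f, Aox3 and Ugt1a6a are filled in the first and last panels (Ces1f at 1.60 and -1.48), and none is filled in the middle one.

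Within a genotype the members often moved together by library. Falcor-/- replicate 9 held the highest Falcor-/- value for 8 of the 10 members, and Falcor-/- replicate 10 the lowest for 6. Foxa2+/- replicates 12 and 14 held the highest Foxa2+/- value for 6 and 4 members, Double-Het replicates 16 and 17 for 5 each, and wild-type replicate 4 the highest wild-type value for 7. The club cell marker list, which holds none of the 10 members, moved alongside. Its mean was 14.38 in Falcor-/- replicate 9, against 12.97 to 13.47 in the other Falcor-/- libraries, and 13.88 in wild-type replicate 4, the highest of the wild-type libraries. Aox3 and Cyp2b10 were the members whose highest Falcor-/- value was not in replicate 9. For Aox3, replicate 9 (14.61) was second to replicate 7 (14.69), and replicate 10 (14.20) was the lowest. For Cyp2b10, replicates 6 (14.60) and 10 (14.59) were above replicate 9 (14.55).

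**Figure D4:**
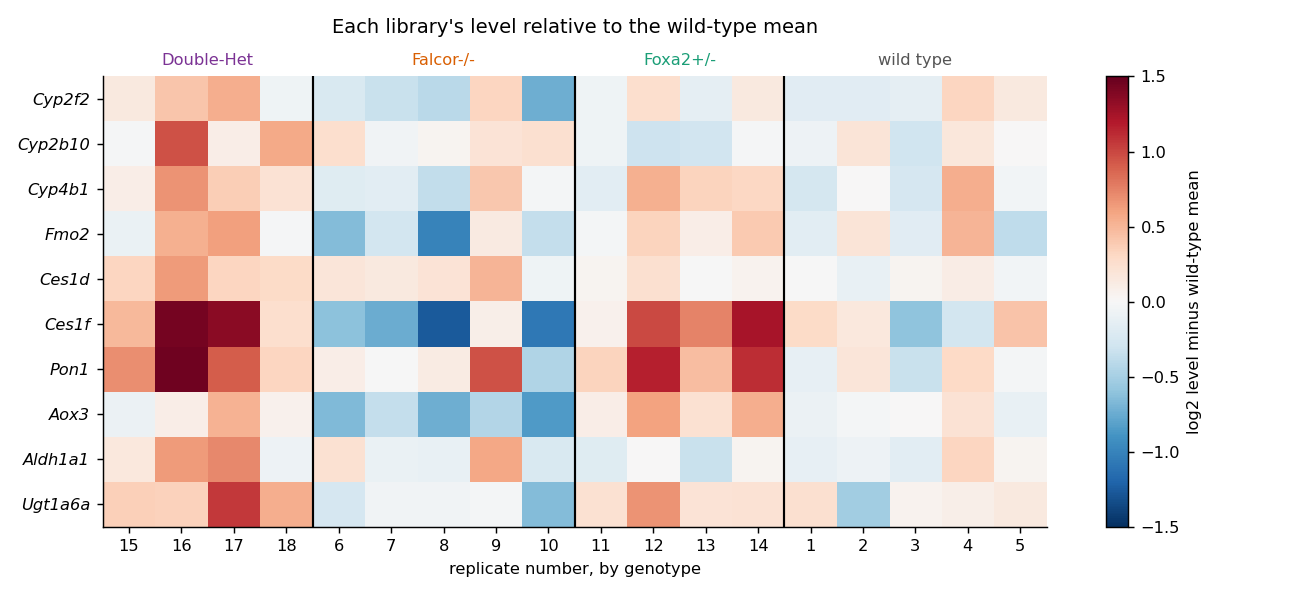
Log2 level of each enzyme gene (rows) in each library (columns, by replicate number under its genotype) minus the wild-type mean of that gene, from blue (lower) to red (higher). Falcor-/- replicate 9 is red or pale for most genes while the row of Aox3 is blue across all 5 Falcor-/- libraries.

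Marker genes of several cell types differed between the genotypes beside these results. Against wild type, 7.21% of all genes were called higher and 7.57% lower in Double-Het. These shares were 5.23% and 4.24% in Falcor-/-, and 1.96% and 4.15% in Foxa2+/-. Of 18 club cell markers, 2 were called higher in Double-Het against wild type (Scgb3a2 at 0.67 and Selenbp1 at 0.51), and 0 in Falcor-/- and in Foxa2+/- against wild type. The log2 of the summed club marker level ran from 19.22 to 19.89 in Double-Het, from 18.93 to 19.95 in Falcor-/-, from 19.18 to 19.75 in Foxa2+/- and from 19.12 to 19.47 in wild type. Of 24 endothelial markers, 22 were called lower in Double-Het, 2 in Falcor-/- and 21 in Foxa2+/- against wild type. Their summed level ran from 15.27 to 15.76 in Double-Het, from 16.23 to 18.06 in Falcor-/-, from 15.68 to 16.10 in Foxa2+/- and from 16.75 to 18.19 in wild type. Of 20 mesenchymal markers tested, 18 were called lower in Double-Het, 5 in Falcor-/- and 11 in Foxa2+/- against wild type. Their summed level ran from 15.25 to 15.52 in Double-Het, from 15.84 to 16.92 in Falcor-/-, from 16.06 to 17.15 in Foxa2+/- and from 16.58 to 17.33 in wild type. Of 12 alveolar type 1 markers 7 were called lower in Double-Het and 7 in Foxa2+/-, and of 15 macrophage markers 6 were called lower in Double-Het and 6 in Falcor-/-; the part of these 2 lists in the results was not tested. Of 16 ciliated cell markers 1 was called higher in Falcor-/- against wild type and 0 in the other genotypes.

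The same lists also differed between the mutants. Of all 15249 genes, 1305 were called higher and 1235 lower in Falcor-/- against Foxa2+/-. The counts were 328 and 457 in Double-Het against Falcor-/-, and 161 and 209 in Double-Het against Foxa2+/-. In Falcor-/- against Foxa2+/- libraries 3 of 18 club markers were called lower (Muc5b at -1.64, Pigr at -1.40 and Chad at -0.95), while 10 of 16 ciliated, 18 of 24 endothelial and 6 of 12 alveolar type 1 markers were called higher, and 10 of 20 mesenchymal markers were called higher and 2 lower. In Double-Het against Falcor-/- libraries 2 of 18 club markers were called higher (Muc5b at 1.48 and Chad at 1.13), 19 of 24 endothelial and 10 of 20 mesenchymal markers lower, and 0 of 16 ciliated markers were called. In Double-Het against Foxa2+/- libraries 1 ciliated marker was called higher, and 1 endothelial, 2 mesenchymal and 5 of 15 macrophage markers lower. Of the 15 macrophage markers 6 were also called lower in Falcor-/- against Foxa2+/-, and 0 were called in Double-Het against Falcor-/-. The summed ciliated level ran from 17.08 to 17.29 in Double-Het, from 16.89 to 17.71 in Falcor-/-, from 16.37 to 17.04 in Foxa2+/- and from 16.96 to 17.23 in wild type, and its part in the results was not tested.

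With the club marker mean as a covariate, the Double-Het differences from wild type were 0.26 for Ces1d (adjusted p = 0.0568), 0.44 for Pon1 (adjusted p = 0.109) and 0.46 for Ugt1a6a (adjusted p = 0.146), while Aox3 stayed called in Falcor-/- against wild type. With the endothelial mean as a covariate the Double-Het differences were 0.11 for Ces1d, 0.56 for Pon1 and 0.21 for Ugt1a6a, none of them called. With that covariate Double-Het minus Falcor-/- was 1.84 for Ces1f (adjusted p = 0.469), 0.67 for Aox3 (adjusted p = 0.573) and 0.53 for Ugt1a6a (adjusted p = 0.852). Genotype held 82.0% of the variance of the endothelial mean and 82.8% of that of the mesenchymal mean, so these markers and the genotype cannot be told apart, and 29.0% of the variance of the club mean.

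**Figure D5:**
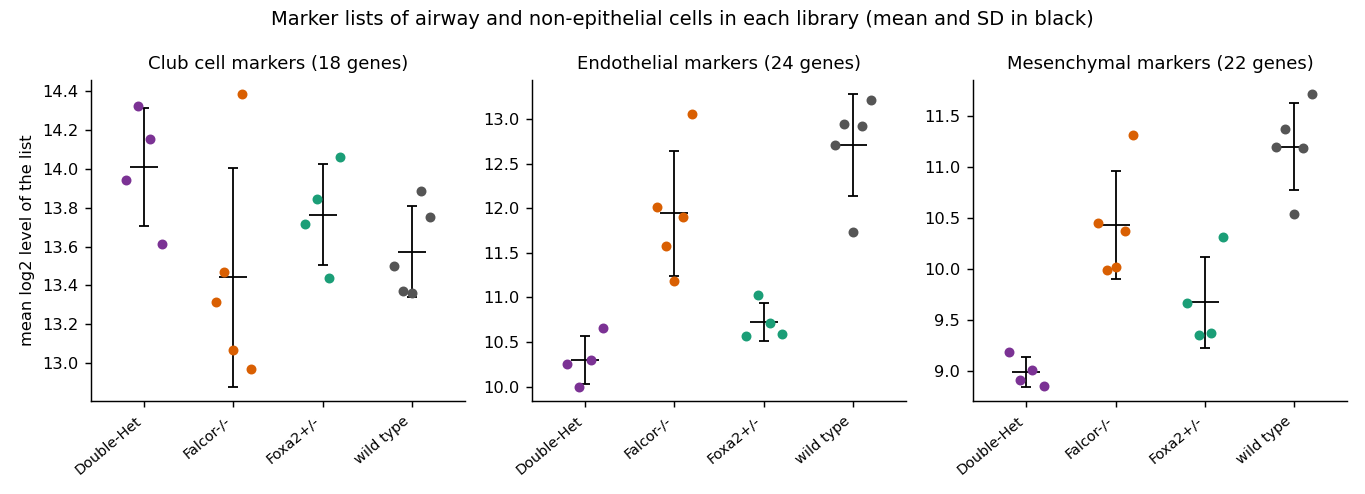
Mean log2 level (y axis, a separate range in each panel) of the club cell (18 genes), endothelial (24) and mesenchymal (22) marker lists in each library, by genotype on the x axis. Points are libraries and black marks the mean and SD. Falcor-/- replicate 9 is the highest Falcor-/- library for club markers, at 14.38, and Double-Het libraries are the lowest group for mesenchymal markers.

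Other enzymes of the same chemistry were counted on 2 lists. Of 43 measured enzymes of oxidation, reduction and hydrolysis, 8 were called higher and 2 lower in Double-Het against wild type, beside 7.21% and 7.57% of all genes, with a median difference of 0.28. Cyp1b1, a P450 of polycyclic hydrocarbon and estrogen metabolism, averaged 11.46 ± 0.35 in Double-Het (SD, n = 4) and 9.99 ± 0.47 in wild type (SD, n = 5), a difference of 1.47 (SE 0.295, adjusted p = 0.00302). Cyp2d22 was lower, at 9.54 ± 0.20 in Double-Het (SD, n = 4) and 11.08 ± 0.51 in wild type (SD, n = 5), a difference of -1.54 (SE 0.308, adjusted p = 0.00303). Nqo1, a quinone reductase, was 1.07 higher (SE 0.216, adjusted p = 0.00311).

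In the other genotypes the counts on this list were near the share of all genes. In Falcor-/- against wild type 3 of the 43 were higher and 1 lower, beside 5.23% and 4.24% of all genes, among them the aldo-keto reductase Akr1b8 at 0.61 (SE 0.143, adjusted p = 0.0228), Cyp4f16 at 0.50 (SE 0.121, adjusted p = 0.0242) and Cyp1a1, the classic aryl hydrocarbon receptor target, at -2.06 (SE 0.526, adjusted p = 0.0285). In Foxa2+/- against wild type 1 was higher and 1 lower, beside 1.96% and 4.15% of all genes, Akr1b8 at 0.71 (adjusted p = 0.00806) and Cyp1a1 at -2.08 (adjusted p = 0.0337). Both genes were also called in Double-Het, Akr1b8 at 0.74 (adjusted p = 0.00374) and Cyp1a1 at -2.18 (adjusted p = 0.0147). The Cyp1a1 call held in 9 of 9 leave-one-out fits in Double-Het, 4 of 10 in Falcor-/- and 2 of 9 in Foxa2+/-. Cyp1a1 averaged 7.20 ± 0.62 in Double-Het, 7.31 ± 1.26 in Falcor-/- and 7.29 ± 0.98 in Foxa2+/- libraries (SD). These means were near the filter on low values at 6, against 9.37 ± 0.51 in wild type. The median difference of the list was 0.03 in Falcor-/- and 0.00 in Foxa2+/-.

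Of 24 measured conjugation enzymes, 6 were called higher and 0 lower in Double-Het against wild type, beside 7.21% and 7.57% of all genes, all of them glutathione transferases or their microsomal relatives, with a list median of 0.27. Mgst1 rose by 0.61 (SE 0.152, adjusted p = 0.0132), Gstk1 by 0.73 (SE 0.185, adjusted p = 0.0136) and Gstt1 by 0.74 (SE 0.198, adjusted p = 0.0199). Each of these calls held in 8 of 9 leave-one-out fits, but the remaining Double-Het calls on this list held in only 2 or 3 of 9. In Falcor-/- 2 of 24 were higher, beside 5.23% of all genes, Gstp1 at 0.66 (adjusted p = 0.0264, held in 5 of 10 leave-one-out fits) and Mgst3 at 0.39 (adjusted p = 0.049, held in 2 of 10), and in Foxa2+/- 0 were called. Of 19 measured regulators of these enzymes, which include the receptors CAR, PXR and Ahr and the stress factor Nrf2, the called ones against wild type were Foxa1 at 0.39 (adjusted p = 0.0258) and Foxa2 at -0.60 (adjusted p = 0.000891) in Double-Het and Foxa2 at -0.57 (adjusted p = 0.00245) in Foxa2+/-, with 0 in Falcor-/-.

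Family relatives, singled out after their values were seen, did not all move with the members. Aox1, the other aldehyde oxidase with a value here, was 0.79 higher in Double-Het than in Falcor-/- (SE 0.211, adjusted p = 0.0383) and -0.26 from wild type in Falcor-/- (adjusted p = 0.352). Pon3, which neighbours Pon1, was 0.51 higher in Double-Het than in wild type (adjusted p = 0.0106) and 0.41 lower in Falcor-/- than in Foxa2+/- (difference -0.41, adjusted p = 0.0347). Ces1g went the other way from Ces1f between Falcor-/- and Foxa2+/- libraries, at 1.10 (SE 0.25, adjusted p = 0.0118). Members of the Ces1, Cyp2b, Ugt1a and glutathione transferase families are close copies of each other, and how the authors divided their reads is not given in the sources used here.

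For members with an SD of at least 0.5 over the 18 libraries, genes with a similar centred profile were ranked among 13720 candidates by root mean square difference. Among the 3 nearest to Ces1f were Pax9 (0.39 log2 units) and Chad (0.40), which is also on the club cell marker list. Among the 3 nearest to Pon1 were Fetub (0.24) and Nrarp (0.25).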

How the data were processed

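Per the labels, RNA of bead-sorted EpCAM+ lung cells was sequenced. Per the submitters' processing notes, STAR, limma and the mm9 build were used; which counter, annotation and versions is not given in the sources used here. Deposited values are log2 levels from the authors, with nearly the same distribution in all 18 libraries, which is quantile normalization; depth and counting error are therefore unknown, and a shift common to most genes would be invisible. Names came from GENCODE vM21 (14994 of 15544 identifiers had a symbol).

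Genes with a mean below 6 were left out (295), and limma 3.58.1 in R 4.3.3 with an intensity trend was fitted to all 18 libraries, 1 mean per genotype (14 residual degrees of freedom). The 6 contrasts were 2-sided, adjusted over 15249 genes. The code was tested on simulated data. The members and lists were chosen with earlier results of these data known. Named were all members, up to 3 called genes with the smallest p for each enzyme or regulator list and comparison with wild type, and genes among the 3 nearest profiles of members with an SD of at least 0.5. Alternatives were no filter, no trend, library weights, only the 2 genotypes compared, a housekeeping shift, marker means as covariates, and each library left out. Some genes that this rule names are not reported here. Protein sequences were not used here.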

Additional observations from a re-analysis of the deposited data

Results flagged for a closer look

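Single libraries stood apart in 3 of the 40 groups of a member and a genotype, where chance alone flags about 1 group in 20. Ces1d in Double-Het replicate 16 was 16.77, above 16.41 to 16.45 in the other Double-Het libraries, and the Double-Het call of Ces1d was lost without it. Ugt1a6a in Foxa2+/- replicate 12 was 11.63, above 11.16 to 11.18 in the other Foxa2+/- libraries, and without it the difference between Falcor-/- and Foxa2+/- was -0.43 (limma adjusted p = 0.138). Ugt1a6a in wild-type replicate 2 was 10.43, below 11.00 to 11.19 in the other wild-type libraries, and without it the Double-Het difference from wild type was 0.45 (limma adjusted p = 0.0923).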

How the results depend on the processing

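Aox3 in Falcor-/- against wild type was called under each alternative run. The 3 members called in Double-Het against wild type fell to 0 under the housekeeping shift and with the club, endothelial or mesenchymal mean as a covariate, and the leave-one-out range was 1 to 3. The 3 called in Double-Het against Falcor-/- fell to 0 with the endothelial or the mesenchymal mean, with a leave-one-out range of 2 to 6. In Falcor-/- against Foxa2+/- (3 called) the count was 5 with library weights, 1 with the endothelial mean (Aox3), 2 under the housekeeping shift, without the trend, with only the 2 genotypes fitted and with the mesenchymal mean, each without Ugt1a6a, and 3 with the club mean, where Aldh1a1 (0.40) was called and Ugt1a6a was not; leave-one-out gave 2 to 4. In Double-Het against Foxa2+/- (0 called) it was 2 with library weights, leave-one-out 0 to 1. In Foxa2+/- against wild type (0 called) it was 2 with library weights, 1 with only the 2 genotypes fitted and 1 with the club mean, Pon1 each time, joined by Aox3 with weights. In Falcor-/- against wild type (1 called) it was 2 with the club mean, which added Ces1d. Signs turned in some differences from wild type, and of these only Ugt1a6a in Double-Het had been called. With the club mean they turned for Cyp4b1 in Falcor-/- (0.000304), Cyp2f2 in Double-Het (-0.0400) and Foxa2+/- (-0.081) and Fmo2 in Double-Het (-0.016). With the endothelial mean they turned for Cyp4b1 in Falcor-/- (0.065) and, in Foxa2+/-, Cyp2f2 (-0.092), Cyp2b10 (0.084) and Ces1d (-0.147). With the mesenchymal mean they turned for Aox3 (-0.101) and Ugt1a6a (-0.064) in Double-Het and for Cyp2f2 (-0.044), Cyp2b10 (0.11), Ces1d (-0.138) and Ugt1a6a (-0.11) in Foxa2+/-. Against wild type, leave-one-out ranges that crossed 0 were -0.19 to 0.0700 for Cyp4b1, -0.0585 to 0.29 for Pon1 and -0.0524 to 0.16 for Aldh1a1 in Falcor-/-, and -0.0179 to 0.13 for Cyp2f2 in Foxa2+/-. The cause of these changes was not tested. The shares of all genes called under these alternatives are not given here. The counts of members under them therefore have no background, and a general rise or fall in calls cannot be told apart from one in the members. No paired analysis was run, because the replicate numbers run on through the genotypes and name no pairs.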
